A study of Rattus norvegicus with 15 samples.

Results

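The genes described here are 33 genes of the pancreatic acinar cell: its secreted digestive enzymes, proteins of its zymogen granules, an endoplasmic reticulum protein, the receptor for cholecystokinin and the transcription factors of the acinar programme. They were chosen by name from a written list, without a threshold on any measured value, and 31 of the 33 were found among the 28914 genes of the deposited count table; Try4 and Pdia2 were not matched by symbol. The libraries held polyadenylated RNA of isolated islets of Langerhans, the endocrine clusters of the pancreas, from 15 Lewis rats. Groups are partial pancreatectomy (Px, 90% of the pancreas removed, n = 10) and sham surgery (Sham, n = 5), both 10 weeks after the operation. Px rats were split by the average blood glucose before sacrifice, which the labels give without a unit: 3 higher-glucose Px rats at 416 to 464, 7 lower-glucose Px rats at 104 to 211, and Sham rats at 88 to 96. No genotype or drug is named in the labels, and a description of the rats as 4 to 5 weeks old does not say at which point of the study. All 15 titles carry the mark Inc_YES, which is not explained. Nothing in the labels says how the islets were isolated or picked, and each library was taken as 1 rat.

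Acinar cells make and store digestive enzymes, mostly as inactive zymogens in granules, and release them into the duct when cholecystokinin or acetylcholine acts on the cell. Their enzyme genes are driven by the PTF1 complex, which joins the basic helix-loop-helix protein Ptf1a with Rbpjl, together with Nr5a2 and Gata4, while Bhlha15 (Mist1) organises the granules and the secretory apparatus. Islet endocrine cells do not make these enzymes as their product, but isolated islets can carry acinar cells on their surface.

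Some promoters are shown because the results turn on paralogous trypsins and on transcription factors whose levels did not move alike; Amy2a3 and Ctrb1 were added after their values were seen. Sequences are from RefSeq, build GRCr8, each running 5′ to 3′ on the gene's strand over 250 bases before and 50 after the annotated start. Capitals mark matches on either strand to CACCTG (an E-box form bound by basic helix-loop-helix proteins), TTTCCCA (a form bound by Rbpj proteins) or TATAAA (the core promoter box); no printed match overlaps another. The windows are chr4:71330999-71331298 (plus strand) for Prss1, chr4:71244714-71245013 (plus strand) for Prss2, chr4:71183646-71183945 (minus strand) for Try5, chr19:56566929-56567228 (minus strand) for Ctrb1, chr2:204014363-204014662 (minus strand) for Amy2a3, chr3:173553248-173553547 (plus strand) for Rbpjl and chr12:15538250-15538549 (minus strand) for Bhlha15.
Prss1: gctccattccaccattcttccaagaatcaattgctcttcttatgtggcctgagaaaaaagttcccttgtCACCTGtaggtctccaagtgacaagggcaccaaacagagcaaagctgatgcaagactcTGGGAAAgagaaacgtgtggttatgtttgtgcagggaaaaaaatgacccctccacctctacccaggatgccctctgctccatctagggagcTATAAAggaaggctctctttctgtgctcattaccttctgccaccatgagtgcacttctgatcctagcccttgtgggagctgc
Prss2: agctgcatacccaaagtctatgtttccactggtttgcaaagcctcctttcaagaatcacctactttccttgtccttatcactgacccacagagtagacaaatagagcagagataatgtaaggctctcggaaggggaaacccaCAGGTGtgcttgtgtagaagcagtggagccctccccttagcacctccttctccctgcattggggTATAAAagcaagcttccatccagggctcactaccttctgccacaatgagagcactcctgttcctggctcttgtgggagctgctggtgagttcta
Try5: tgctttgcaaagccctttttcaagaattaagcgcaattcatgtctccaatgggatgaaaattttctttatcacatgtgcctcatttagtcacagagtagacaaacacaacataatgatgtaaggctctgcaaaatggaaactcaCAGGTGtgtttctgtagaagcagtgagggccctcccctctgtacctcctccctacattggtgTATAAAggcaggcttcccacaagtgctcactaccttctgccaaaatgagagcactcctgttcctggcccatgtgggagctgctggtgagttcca
Ctrb1: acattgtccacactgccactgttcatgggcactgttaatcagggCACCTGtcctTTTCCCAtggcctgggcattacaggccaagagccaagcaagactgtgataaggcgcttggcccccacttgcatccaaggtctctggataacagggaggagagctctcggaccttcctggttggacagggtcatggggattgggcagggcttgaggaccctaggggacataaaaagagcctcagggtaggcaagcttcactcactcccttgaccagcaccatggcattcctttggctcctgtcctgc
Amy2a3: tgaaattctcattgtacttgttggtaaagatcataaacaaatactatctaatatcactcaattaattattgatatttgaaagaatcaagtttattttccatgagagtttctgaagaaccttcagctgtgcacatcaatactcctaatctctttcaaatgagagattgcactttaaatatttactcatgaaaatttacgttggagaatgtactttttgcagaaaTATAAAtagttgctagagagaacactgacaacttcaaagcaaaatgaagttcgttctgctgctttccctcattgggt
Rbpjl: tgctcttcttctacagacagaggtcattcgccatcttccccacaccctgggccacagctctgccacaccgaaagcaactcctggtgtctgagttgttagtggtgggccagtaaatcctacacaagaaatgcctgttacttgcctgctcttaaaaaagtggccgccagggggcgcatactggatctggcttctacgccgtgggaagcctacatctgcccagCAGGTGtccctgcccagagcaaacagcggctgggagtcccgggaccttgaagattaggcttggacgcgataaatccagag
Bhlha15: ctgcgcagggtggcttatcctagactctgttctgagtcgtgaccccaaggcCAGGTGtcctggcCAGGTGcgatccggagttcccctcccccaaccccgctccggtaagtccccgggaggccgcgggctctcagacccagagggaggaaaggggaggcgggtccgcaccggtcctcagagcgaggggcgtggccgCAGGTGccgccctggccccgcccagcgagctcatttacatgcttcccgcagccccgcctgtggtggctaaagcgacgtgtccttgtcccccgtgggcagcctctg

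Promoter windows were matched for 24 of the 33 listed genes. CACCTG stood in 14 of these 24 (58.3%), against 18.7% of 27457 RefSeq promoters of the same length, and TATAAA in 11 (45.8% of these, against 14.3% of all). TTTCCCA stood in 4 (16.7%, against 8.08% of all), and CAAGGTCA, a form bound by Nr5a2, in 1 (4.17%, against 1.48% of all), the Cel promoter. In the Prss2 and Try5 promoters the E-box form began at −108 and −106 from the start and the TATA box at −44 in both. The Prss1 promoter had its E-box form at −181, a TTTCCCA match at −123 and its TATA box at −32. The Amy2a3 window held the TATA box alone. Bhlha15 had 3 E-box forms and no TATA box. The Ptf1a and Nr5a2 windows, which are not printed, held no match to any of these forms. A match describes these letters only.

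Library totals were 19106966 to 33422013 counts in Px and 12205337 to 18427647 counts in Sham, so levels in Sham rested on fewer reads. The labelled tissue was checked with 8 islet hormones, all detected, which made up 3.91% to 9.82% of counts in Px and 11.55% to 25.01% in Sham. Markers of other non-endocrine cells were higher in Px too: all 14 tested macrophage and myeloid markers, all 12 stellate and fibroblast markers, 11 of 13 duct markers and 7 of 9 endothelial markers passed the edgeR test upward. Summed over each list, macrophage markers were at 810 to 4100 CPM (read counts per 1e6 counts of the TMM-scaled library) in Px and 35.8 to 77.8 CPM in Sham, stellate markers at 1430 to 7270 CPM in Px and 177 to 474 CPM in Sham, duct markers at 811 to 1080 CPM in Px and 423 to 613 CPM in Sham, and endothelial markers at 536 to 842 CPM in Px and 359 to 491 CPM in Sham. The duct marker Mmp7 was at 0 in at least 1 Sham library, and no macrophage, stellate or endothelial marker in the table was. Of 8 endocrine granule genes 4 were lower in Px and none passed upward, with summed levels of 7530 to 13100 CPM in Px and 12900 to 17300 CPM in Sham. The part of these cell types in the acinar results was not tested. In such bulk RNA, fewer or more acinar cells and less or more RNA per cell cannot be told apart.

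The 31 acinar genes together gave 20.9% to 49.9% of all counts in Px islets (median 30.9%) and 1.10%, 4.51%, 15.1%, 2.54% and 3.41% in Sham replicates 23 to 27. No Px library reached down to a Sham library. The interval from counting alone was narrow, for example 49.91% to 49.95% in the highest Px library and 15.12% to 15.15% in Sham replicate 25 (95% Wilson). Sham replicate 25 stood above its group, being the highest Sham library for 29 of the 31 genes, and Sham replicate 23 was the lowest for 30. These ranks were not counted over all genes, and the 31 genes are not independent.

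Px was compared with Sham to see which acinar genes differed after the operation. Of the 31 genes, 29 were higher in Px and none was lower at a Benjamini-Hochberg adjusted p under 0.05 over all 15199 genes tested (edgeR quasi-likelihood test on counts scaled by TMM, a trimmed mean of ratios). In the same comparison 64.7% of all genes passed, 34.5% upward and 30.2% downward. The median log2 fold change was 3.22 over the 31 genes and 0.02 over all genes. Without Sham replicate 25 the members' median was 4.21 and 30 passed. In 23 genes every Px library lay above every Sham library, against 20.8% of all genes. The other 8 were Pnliprp1, Amy2a3, Cel, Cuzd1, Serpini2, Gata4, Bhlha15 and Cckar, and all of these except Bhlha15 and Cckar overlapped through Sham replicate 25 alone.

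**Figure D1:**
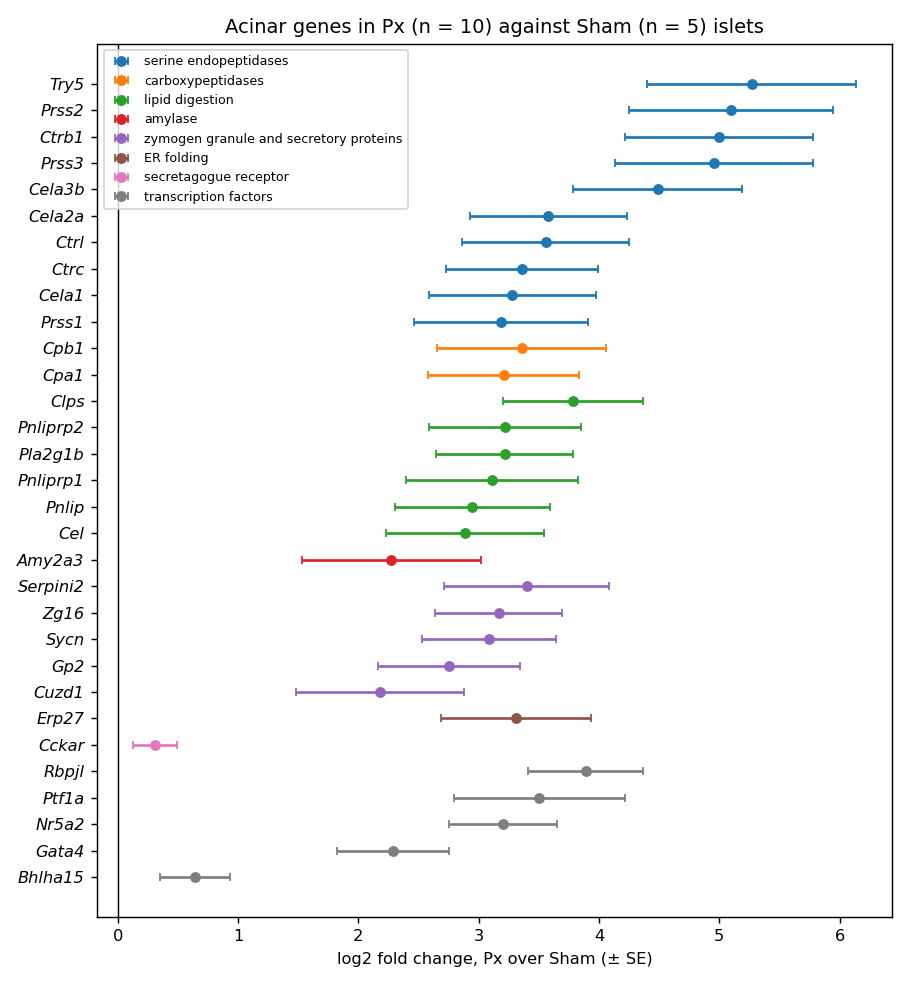
Log2 fold change of each acinar gene, Px (n = 10) over Sham (n = 5), on the horizontal axis, with the standard error as a bar and colours for the roles. The estimates run between 0.31 for Cckar and 5.27 for Try5, with the trypsins Prss2, Prss3 and Try5, Ctrb1 and Cela3b at the upper end and Bhlha15 and Cckar near 0.

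The serine endopeptidases, which cut dietary protein inside the chain, all passed upward: 10 of 10, with log2 fold changes of 3.18 to 5.27. Ctrb1, chymotrypsinogen, lay between 27120 and 211600 CPM in Px (median 61400 CPM), against 601.5, 1955, 7563, 1492 and 1777 CPM in Sham replicates 23 to 27. Every Px library was above every Sham library, with a log2 fold change of 5.00 ± 0.78 (SE, adjusted p = 3.2e-05, edgeR). Prss1, a trypsinogen, lay between 30400 and 177800 CPM in Px (median 53540 CPM), against 1293, 5032, 25190, 4655 and 5839 CPM in Sham. The groups did not overlap, but Sham replicate 25 came close to the lowest Px library, and the log2 fold change was 3.18 ± 0.72 (edgeR adjusted p = 0.00101).

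The other trypsinogens stood further apart. Prss2 lay between 7215 and 60120 CPM in Px (median 17170 CPM), against 115.3, 584.2, 2163, 421.5 and 423.9 CPM in Sham (log2 fold change 5.10 ± 0.85). Try5 lay between 1153 and 10320 CPM in Px and between 18.4 and 396.6 CPM in Sham (5.27 ± 0.87), and Prss3 between 2033 and 18310 CPM in Px and between 37.9 and 660.1 CPM in Sham (4.96 ± 0.82). All 3 had every Px library above every Sham library. The trypsin genes lie beside each other on chromosome 4 and are closely related copies, so reads could be split among them by the authors' counting and their separate values are uncertain.

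Elastases and the minor chymotrypsins filled the rest of this group. Cela3b had 6902 to 40300 CPM in Px against 158.3 to 2276 CPM in Sham, a log2 fold change of 4.49 ± 0.70. Cela1 and Cela2a were at 3.28 ± 0.70 and 3.58 ± 0.66, and Ctrc and Ctrl at 3.36 ± 0.63 and 3.56 ± 0.69. None of these 5 overlapped between Px and Sham.

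Both carboxypeptidases, which trim peptides from the carboxyl end, passed upward. Cpa1 lay between 6251 and 29640 CPM in Px (median 14420 CPM), against 259.6, 1372, 4810, 778.1 and 916.9 CPM in Sham, and the log2 fold change was 3.21 ± 0.63 (edgeR adjusted p = 0.000278). Cpb1 lay between 11610 and 63430 CPM in Px and between 531.9 and 10620 CPM in Sham (3.36 ± 0.71). For both genes the highest Sham value was below the lowest Px value.

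All 6 genes of lipid digestion passed upward, with log2 fold changes of 2.89 to 3.79. Clps, colipase, the cofactor that anchors pancreatic lipase on fat droplets, lay between 405.2 and 1462 CPM in Px and between 12.4 and 168.2 CPM in Sham (3.79 ± 0.58). Pnlip, pancreatic lipase itself, had 7706 to 32240 CPM in Px and 392.2 to 7329 CPM in Sham (2.95 ± 0.64). The phospholipase Pla2g1b (3.22 ± 0.57), the lipase-related Pnliprp1 (3.11 ± 0.72) and Pnliprp2 (3.22 ± 0.63) and the bile salt-dependent lipase Cel (2.89 ± 0.65) lay close to each other.

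Amy2a3, pancreatic amylase, which cuts starch, had the smallest log2 fold change of the 19 listed enzymes. It lay between 9272 and 142300 CPM in Px (median 29230 CPM), against 1443, 6988, 25980, 3780 and 5084 CPM in Sham. Only 5 of the 10 Px libraries exceeded Sham replicate 25, and the log2 fold change was 2.27 ± 0.75 (edgeR adjusted p = 0.0133). The related gene Amy1a can share reads with it, so the value is uncertain.

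The 5 proteins of the zymogen granule and secretory juice passed upward, with a median log2 fold change of 3.08. Serpini2, a serine protease inhibitor, lay between 91.3 and 638.8 CPM in Px and between 6.71 and 94.1 CPM in Sham (3.40 ± 0.69). The granule lectin Zg16 had 1360 to 4780 CPM in Px and 56.0 to 758.5 CPM in Sham (3.17 ± 0.53), and Sycn, syncollin of the granule membrane, 4287 to 17800 CPM in Px and 195.0 to 2334 CPM in Sham (3.08 ± 0.55). Gp2, the membrane-anchored granule glycoprotein, was at 2.75 ± 0.59 and Cuzd1, a granule protein with CUB and zona pellucida domains, at 2.18 ± 0.70. Erp27, an endoplasmic reticulum protein of the disulphide isomerase family, had 201.4 to 819.8 CPM in Px and 6.34 to 144.8 CPM in Sham (3.31 ± 0.62).

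Cckar, the receptor through which cholecystokinin stimulates enzyme release, did not pass. It lay between 57.6 and 140.3 CPM in Px (median 89.3 CPM), against 72.3, 81.2, 76.7, 76.1 and 70.8 CPM in Sham, with 6 of 10 Px libraries above the highest Sham value. The log2 fold change was 0.31 ± 0.18 (edgeR adjusted p = 0.14). Scaled by library totals alone it was −0.42 and passed downward (adjusted p = 0.0313), and scaled by 8 endocrine granule genes it was 0.87 and passed upward (adjusted p = 0.000318). These scalings moved the median of all genes to −0.62 and 0.61.

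**Figure D2:**
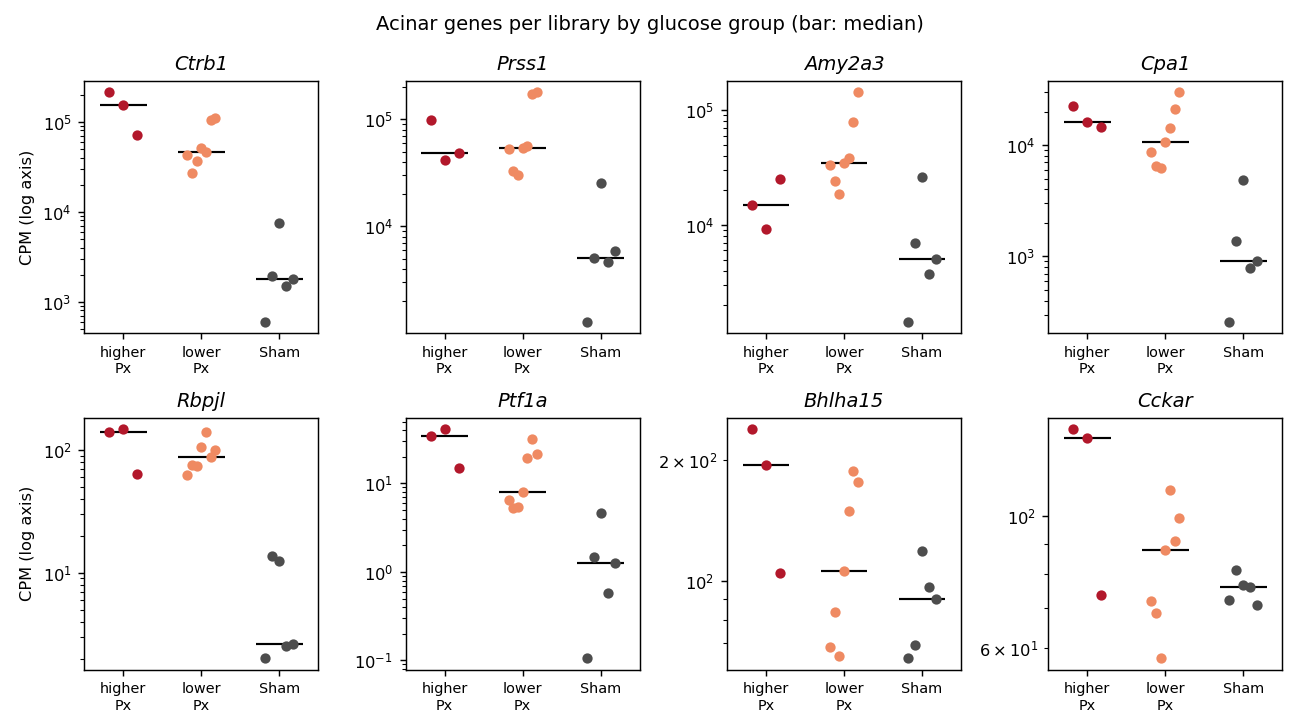
CPM of 8 acinar genes in each library (log axis, with a range of its own in each panel), in higher-glucose Px (n = 3), lower-glucose Px (n = 7) and Sham (n = 5), with the median as a bar. Ctrb1, Prss1, Cpa1, Rbpjl and Ptf1a leave a gap between Px and Sham, while Amy2a3, Bhlha15 and Cckar overlap.

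Of the 5 transcription factors, 4 passed upward. Rbpjl, the acinar-specific subunit of PTF1, lay between 63.3 and 148.1 CPM in Px (median 94.0 CPM), against 2.01, 13.8, 12.6, 2.53 and 2.64 CPM in Sham replicates 23 to 27. Its groups lay far apart, and its log2 fold change of 3.89 ± 0.48 (edgeR adjusted p = 2.75e-06) had the smallest adjusted p of the 31 genes. Sham replicates 24 and 25 held the higher Rbpjl values of their group, although replicate 24 had no more than 4.51% acinar counts.

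Ptf1a, the helix-loop-helix subunit, lay between 5.28 and 41.0 CPM in Px (median 17.2 CPM), against 0.106, 1.47, 4.68, 0.578 and 1.26 CPM in Sham, and the log2 fold change was 3.50 ± 0.71 (edgeR adjusted p = 0.00038). Nr5a2, the nuclear receptor also called LRH-1, lay between 15.4 and 55.5 CPM in Px and between 1.32 and 7.17 CPM in Sham (3.20 ± 0.45). Both genes were free of overlap between Px and Sham. Gata4 lay between 6.90 and 40.7 CPM in Px and between 2.27 and 7.61 CPM in Sham (2.29 ± 0.46), and 8 of 10 Px libraries exceeded Sham replicate 25.

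Bhlha15 did not pass. It lay between 65.2 and 238.1 CPM in Px (median 127.4 CPM), against 64.2, 69.3, 118.6, 96.7 and 90.2 CPM in Sham, so the groups overlapped over much of their range. The log2 fold change was 0.64 ± 0.29 (edgeR adjusted p = 0.0633). It was 0.77 without Sham replicate 25 (adjusted p = 0.0467) and passed as well by the DESeq2 Wald test (0.63, adjusted p = 0.041), with granule scaling (1.22) and without lower-glucose replicate 2, 4 or 8, but by library totals it was −0.13.

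Divided by exon length, the genes spanned a wide range of levels. The order at the top differed with the group. Mean levels in higher-glucose Px were 166000 CPM per kb for Ctrb1, 78200 for Prss1, 63000 for Prss2 and 37400 for Cpb1. In lower-glucose Px they were 102000 CPM per kb for Prss1, 67700 for Ctrb1, 23800 for Cpb1 and 22000 for Prss2. In Sham, Prss1 had 10500 CPM per kb, and Ctrb1, Amy2a3 and Cpb1 had 3040, 2790 and 2720 CPM per kb. The last 3 differed by less than the spread between Sham libraries. Among the factors Bhlha15 (38.9 CPM per kb) and Rbpjl (38.6 CPM per kb) were level in Px, but in Sham Bhlha15 had 24.9 and Rbpjl 2.59 CPM per kb. Cckar had 62.4 CPM per kb in Px and 50.2 CPM per kb in Sham.

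The factors were then set against the enzymes in each library, as the log2 ratio of the mean level of the 5 factors to the mean level of the 19 enzymes (colipase included), both in CPM per kb. The ratio ran between −10.6 and −9.28 in Px (median −9.89) and between −9.14 and −6.18 in Sham (median −7.54), without overlap. The factors differed in this. In Sham the ratio rested mostly on Bhlha15, which averaged 24.9 CPM per kb where the 5 factors together averaged 30.58. Divided by the summed enzyme level and given in ppm, Rbpjl was at 53.6 to 190.1 in Px and 49.2 to 236.2 in Sham, Ptf1a at 19.7 to 48.6 in Px and 12.6 to 42.5 in Sham, and Nr5a2 at 12.1 to 31.6 in Px and 15.1 to 56.2 in Sham. For each of these the groups overlapped.

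Bhlha15 was at 69.6 to 152.3 ppm of the summed enzyme level in Px and 347.3 to 3314 in Sham, and Gata4 at 11.61 to 21.98 in Px and 23.4 to 123.2 in Sham, each without overlap. Cckar behaved like Bhlha15, at 92.0 to 293.0 in Px and 526.6 to 8753 in Sham. Sham replicate 25, with the most enzyme, was the Sham library nearest to Px for all 3 genes. The CPM of Bhlha15 and Cckar overlapped between Px and Sham, so their ratios differed mainly through the enzyme level.

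**Figure D3:**
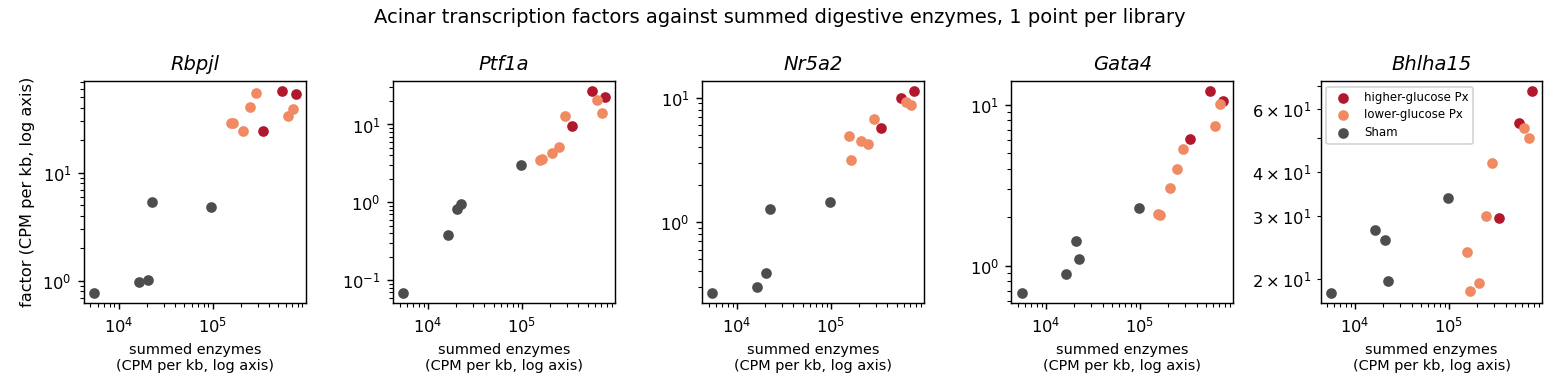
Level of each acinar transcription factor (vertical axis) against the summed level of the 19 digestive enzymes, colipase included (horizontal axis), both in CPM per kb on log axes, with 1 point per library and a vertical range of its own in each panel. Ptf1a climbs along with the enzymes over all 15 libraries, whereas Bhlha15 overlaps between Px and Sham.

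Whether single genes moved by more or less than the acinar genes as a whole was tested on each gene's log2 level relative to the other 30 acinar genes, with an exact two-sided permutation test over libraries (3003 splits, smallest possible p = 0.000666). This measure was chosen after the levels were seen. Of 31 genes, 6 were relatively higher and 8 relatively lower in Px at an unadjusted p under 0.05. On this scale 89.3% of all genes were under 0.05, 0.303% higher and 89.0% lower in Px. These shares are no like background: the measure takes out variation that the acinar genes share and adds it to other genes. With so many genes under 0.05, adjustment over 15198 genes barely changes a p. That all 14 passed it therefore adds nothing. Since each acinar gene is set against the others, differences on both sides of 0 follow from the measure. Relatively higher were Try5 (2.06), Prss2 (1.62), Prss3 (1.57), Ctrb1 (1.54), Cela3b (1.11) and Clps (0.50). Try5, Prss2, Prss3, Ctrb1 and Cela3b did not overlap between groups, and each had the smallest p the test allows. The share of all genes without overlap was not computed for relative levels.

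Relatively lower in Px were Cckar (−3.46), Bhlha15 (−3.17), Gata4 (−1.55), Amy2a3 (−1.22), Cuzd1 (−0.98), Gp2 (−0.48), Cel (−0.38) and Pnlip (−0.31). None of these was lower in CPM by the edgeR test. In Sham, Cckar lay between 70.8 and 81.2 CPM and Bhlha15 between 64.2 and 118.6 CPM. The acinar share there ran between 1.10% and 15.1%, so these 2 genes hardly followed it. Whether acinar cells in Px held less of either was not tested. Cckar, Bhlha15, Gp2 and Cuzd1 did not overlap between groups. The PTF1 subunits were at 0.63 ± 0.45 for Rbpjl (p = 0.145) and 0.28 ± 0.31 for Ptf1a (p = 0.342, exact permutation test), and Prss1 at −0.15 ± 0.24 (p = 0.67).

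Higher-glucose Px was compared with lower-glucose Px to see which genes followed the rats' glucose among operated rats. None of the 31 genes passed over 15661 genes (edgeR, a fit of 3 groups), where 4.88% of all genes passed in either direction, 3.29% upward and 1.59% downward. None passed in a fit of the 10 Px libraries alone or by DESeq2. At an unadjusted p under 0.05 there were 3 of 31 genes (9.68%), against 22.8% of all genes, and in the fit of the 10 Px libraries alone 8 of 31 (25.8%), against 22.2% of all genes. The median log2 fold change was 0.68, with 25 estimates above 0, and all 31 genes overlapped between the groups. Of all genes, 5.39% had every higher-glucose library above every lower-glucose one and 4.46% had every one below. The acinar counts made up 40.9%, 37.8% and 30.7% of the libraries of higher-glucose replicates 13, 15 and 19, and 20.9% to 49.9% in lower-glucose Px.

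Which genes had an unadjusted p under 0.05 depended on the fit: Prss2, Gata4 and Cckar in the fit of 3 groups, and Prss2, Gata4, Cela3b, Pnliprp1, Prss3, Ctrb1, Clps and Amy2a3, without Cckar, in the fit of the 10 Px libraries alone. Of the 8, Amy2a3 had a negative estimate and the others positive ones. Prss2 had 59350, 60120 and 20540 CPM in higher-glucose Px and 7215 to 34300 CPM in lower-glucose Px, a log2 fold change of 1.52 ± 0.68 (edgeR adjusted p = 0.2). Gata4 had 35.5, 40.7 and 20.6 CPM in higher-glucose Px and 6.90 to 33.6 CPM in lower-glucose Px (1.01 ± 0.43, adjusted p = 0.179, edgeR). Cckar had 140.3, 135.8 and 73.8 CPM in higher-glucose Px and 57.6 to 110.8 CPM in lower-glucose Px (0.48 ± 0.19, edgeR adjusted p = 0.155), and passed without higher-glucose replicate 19 (0.72, adjusted p = 0.0459). Its estimate was −0.04 by library totals and −0.44 when scaled by the acinar genes alone. For Prss2, Gata4 and Cckar alike, replicates 13 and 15 were above all lower-glucose libraries and replicate 19 was not.

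Amy2a3 had the lowest estimate in this comparison. It had 15030, 9272 and 25060 CPM in higher-glucose Px, against 33390, 24250, 18590, 34760, 38210, 78050 and 142300 CPM in lower-glucose Px. Replicates 13 and 15 were below every lower-glucose library and replicate 19 lay within their range. The log2 fold change was −1.68 ± 0.83 (edgeR adjusted p = 0.238).

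As a share of the acinar counts, Amy2a3, Prss1 and Prss2 did not overlap between the Px groups, although their levels did, and Ctrb1 overlapped on both scales. Amy2a3 made up 1.98%, 1.69% and 6.77% of the counts of the 31 genes in higher-glucose Px, 10.45% to 17.32% in lower-glucose Px and 18.9% to 23.5% in Sham. No group overlapped another. Ctrb1 averaged highest in higher-glucose Px, with 27.8%, 28.3% and 19.4% in higher-glucose Px, 13.4% to 20.7% in lower-glucose Px and 6.20% to 8.51% in Sham. Prss2 made up 7.81%, 10.9% and 5.55% in higher-glucose Px, 3.11% to 5.04% in lower-glucose Px and 1.63% to 2.11% in Sham. Prss1 made up 12.99%, 7.53% and 13.1% in higher-glucose Px, 17.1% to 25.4% in lower-glucose Px and 16.9% to 23.3% in Sham, so only higher-glucose Px stood apart.

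**Figure D4:**
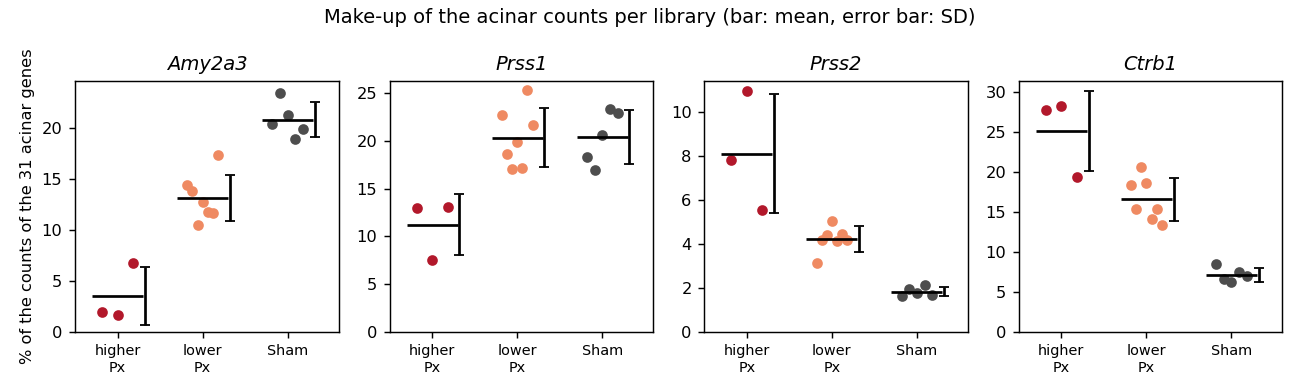
Percent of the summed counts of the 31 acinar genes that came from Amy2a3, Prss1, Prss2 and Ctrb1 (vertical axis, starting at 0, with a range of its own in each panel), 1 point per library, in higher-glucose Px (n = 3), lower-glucose Px (n = 7) and Sham (n = 5), with mean and SD. Amy2a3 averaged 3.48%, 13.2% and 20.8% in these groups in that order, and Ctrb1 25.2%, 16.6% and 7.14%.

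Relative to the other acinar genes, 5 genes were higher and 6 lower in higher-glucose Px at an unadjusted p under 0.05 (exact permutation test, 120 splits, smallest possible two-sided p = 0.0167). On the same scale 3.26% of all genes passed, 0.428% higher and 2.83% lower. Here too the measure takes shared variation out of the acinar genes and adds it to others, so those shares are no like background. No acinar gene passed adjustment over 15660 genes (exact permutation test, adjusted p = 0.348 for each of those called). With a smallest possible p of 0.0167 and 3.26% of genes under 0.05, none could have passed. This adjustment therefore decides nothing about these genes. The relative log2 difference was −2.28 ± 0.62 for Amy2a3, −0.97 ± 0.34 for Prss1 and −0.97 ± 0.35 for Pla2g1b. Each had all 3 higher-glucose libraries below all 7 lower-glucose libraries. How many of all genes were free of overlap on this scale was not computed. The granule proteins Sycn (−0.83 ± 0.41), Zg16 (−0.71 ± 0.24) and Gp2 (−0.47 ± 0.14) were lower as well, Sycn with overlap. The calls for Sycn and Zg16 depended on the measure and on single libraries: against the summed counts of the other acinar genes both had an exact permutation p of 0.05, and Sycn also relative to genes other than trypsins and amylase. Without lower-glucose replicate 2 or 4 both had p = 0.0714, and Sycn also without replicate 10 or 16 (exact permutation test).

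The relatively higher genes were Prss2 (0.86 ± 0.31), Pnliprp1 (0.74 ± 0.07), Cela3b (0.53 ± 0.13), Ctrl (0.46 ± 0.06) and Gata4 (0.38 ± 0.16). Of these Cela3b overlapped between the Px groups and the others did not. Pnliprp1 and Ctrl had the narrowest errors. Prss1 and Prss2 thus lay on opposite sides of 0, although trypsin copies can share reads. Stellate and fibroblast markers moved with the glucose group too: 4 of 12 passed downward in higher-glucose Px, with summed levels of 1430 to 2260 CPM in higher-glucose Px and 2950 to 7270 CPM in lower-glucose Px. Of the endocrine granule genes 3 of 8 passed upward (Chgb, Scg3 and Scg5), with summed levels of 10400 to 13100 CPM in higher-glucose Px and 7530 to 11600 CPM in lower-glucose Px. Of the islet hormones 2 of 8 did (Sst and Pyy), with sums of 57200 to 72600 CPM in higher-glucose Px and 49600 to 85200 CPM in lower-glucose Px. No macrophage, duct or endothelial marker passed, and macrophage markers summed to 857 to 1140 CPM in higher-glucose Px and 810 to 4100 CPM in lower-glucose Px. Their part in the result was not tested.

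**Figure D5:**
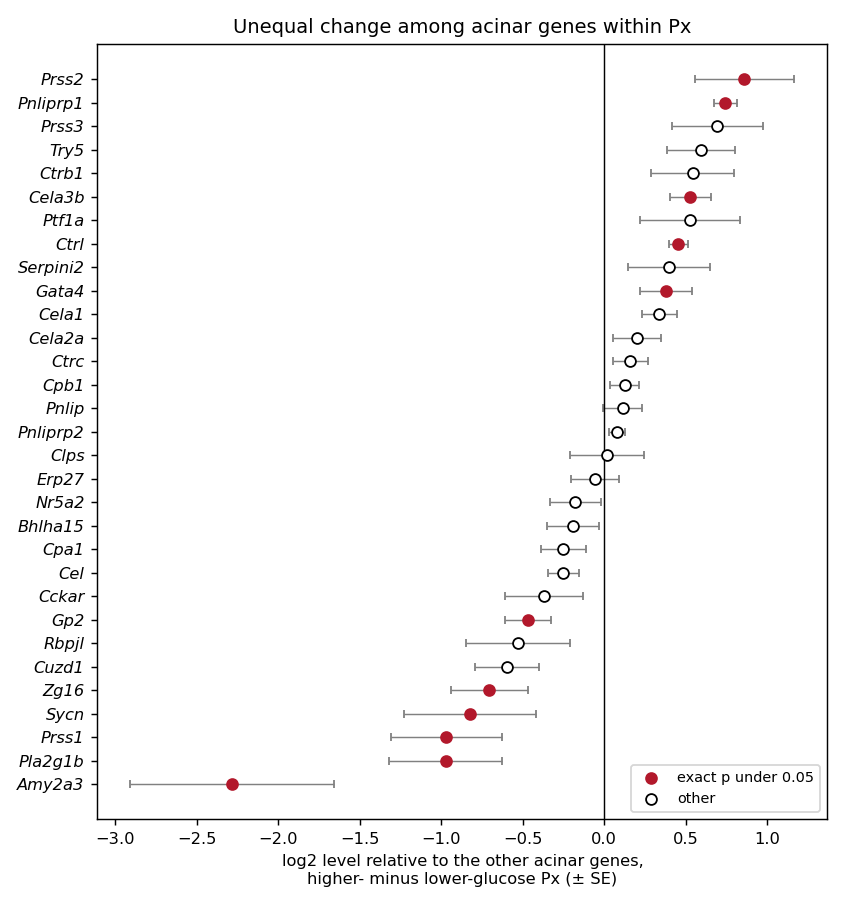
Log2 level of each acinar gene relative to the other 30, higher- minus lower-glucose Px (horizontal axis, bars are standard errors), in order of the difference. Filled points have an unadjusted exact p under 0.05; Amy2a3 lies lowest at −2.28 and Prss2 highest at 0.86.

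Within the 7 lower-glucose Px rats, no acinar gene had a slope on log2 glucose that passed, and no gene of 15695 did (0%, edgeR). At an unadjusted p under 0.05 there was 1 of the 31 genes (3.23%), Clps (slope −1.24 ± 0.50, edgeR adjusted p = 0.522), and 1429 genes in all (9.1%); DESeq2 called 101 genes and no acinar gene. Estimates ran between −1.96 for Prss1 and 0.61 for Rbpjl (−0.13 without replicate 11), in log2 units per doubling of glucose, and 29 were below 0. In 29 of the 31 genes the libraries of replicates 14 and 16, from the rats with glucose of 104 and 119, were both above the other 5. This pair was named after the levels were seen, had the highest acinar shares (44.5% and 49.9%), and was not counted over all genes. The median slope was −1.08, and −3.17 without replicate 11, the rat at 211.

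A written list of other acinar secretory and stimulus genes, not all of them particular to acinar cells, was compared with the 31. Of 19 tested, 15 were higher and 1 was lower in Px, against 34.5% and 30.2% of all genes. Reg1a, a secreted lectin of regenerating acinar tissue, averaged 4327 ± 1174 CPM in Px and 132.5 ± 150.3 CPM in Sham (SD, n = 10 and 5), and Sctr, the secretin receptor, 57.1 ± 17.7 CPM in Px and 6.29 ± 4.13 CPM in Sham. The lower gene was Cpn1, a carboxypeptidase subunit of plasma and no acinar marker (−0.59 ± 0.11, edgeR adjusted p = 0.000153). The summed list was at 18200 to 62600 CPM in Px and 864 to 11400 CPM in Sham, and Cckbr was at 0 in all libraries.

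Of 12 other pancreatic lineage factors, 6 were higher and 2 lower in Px, where 34.5% of all genes passed upward and 30.2% downward; the median log2 fold change was 0.31 over the list and 0.02 over all genes. Gata6, a partner of Gata4 in pancreas formation, averaged 9.43 ± 1.63 CPM in Px and 2.62 ± 0.34 CPM in Sham, and Hes1, a Notch target, 11.4 ± 1.73 CPM in Px and 3.89 ± 0.64 CPM in Sham. Foxa2, used by endocrine cells as well, was lower (−0.86 ± 0.15, edgeR adjusted p = 0.000102). None of either list passed between higher- and lower-glucose Px.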

How the data were processed

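Per the labels' protocols, RNA was isolated with a miRNeasy kit, and libraries were directional. The labels name polyadenylated RNA as the molecule. The authors deposited raw read counts per gene, in the column layout of featureCounts (per the file headers). FastQC, Subread, featureCounts and limma are named in the submitters' processing notes; for versions, genome build, annotation and strand setting, the sources used here give nothing. The exon length column (in bases) that the authors deposited served to divide levels by length. A deposited comparison table was not used here.

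Genes were filtered by filterByExpr (minimum count 10, minimum total count 15) and scaled by TMM. Tests were two-sided edgeR 4.0.16 quasi-likelihood tests in R 4.3.3, adjusted by Benjamini-Hochberg over all genes at 0.05: a fit of 2 groups for Px against Sham, a fit of 3 groups for higher- against lower-glucose Px (boundary at a glucose of 300), and a slope on log2 glucose over 7 libraries. Relative levels are log2 counts (plus 0.5) less the median log ratio of the other acinar genes, tested with exact permutation tests (unadjusted p, then adjusted over all genes). Shares have Wilson intervals at 95%, which cover counting error only. The tests were also run on simulated data. For the edgeR tests those data varied less between libraries than the acinar genes here, so the runs do not show how the tests behave at this spread. No pair of libraries agreed within sampling noise (chi-square per degree of freedom at least 30.1). Nothing in the labels says more of how replicates were prepared, so p-values measure the spread between these libraries.

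The members, lists and tests were chosen with earlier results of these data known. All members are named; of other lists up to 2 higher and 2 lower genes with the smallest p for Px against Sham and a mean of at least 5 CPM could be named. 1 such gene is not reported here. Alternatives were other scaling factors, no filter on low counts, DESeq2 1.42.0, enzymes without trypsins and amylase, levels not divided by length, and leaving out each library; the fit of the 10 Px libraries alone, scaling by the members and the relative levels were added after seeing the data. Promoters were read from RefSeq, build GRCr8.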

Additional observations from a re-analysis of the deposited data

Results flagged for a closer look

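Higher- and lower-glucose Px differed in the relative level of 11 acinar genes by a test of that difference (exact permutation test, unadjusted p under 0.05). None passed adjustment over all genes, which a test of 120 splits put out of reach here. On that scale 3.26% of all genes differed, 0.428% higher and 2.83% lower. That share is no like background, because the measure takes shared variation out of the acinar genes alone. Sycn, Zg16 and Gata4 lost the call against the summed counts of the other acinar genes. On the log2 scale, higher- minus lower-glucose Px, the values were −2.28 for Amy2a3, −0.97 for Prss1, −0.97 for Pla2g1b, −0.83 for Sycn, −0.71 for Zg16 and −0.47 for Gp2. They were 0.86 for Prss2, 0.74 for Pnliprp1, 0.53 for Cela3b, 0.46 for Ctrl and 0.38 for Gata4.

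Sham replicate 25 lay far above the other 4 Sham libraries, by Dixon's ratio of the gap to the whole range, in the acinar share of counts (15.1%) and in the CPM of 24 of the 31 genes. Among the endopeptidases its values were 25190 for Prss1, 2163 for Prss2, 660.1 for Prss3, 396.6 for Try5, 6589 for Cela1, 4814 for Cela2a, 2276 for Cela3b, 7563 for Ctrb1, 2651 for Ctrc and 2021 CPM for Ctrl. Among the other enzymes they were 4810 for Cpa1, 10620 for Cpb1, 7329 for Pnlip, 4618 for Pnliprp1, 994 for Pnliprp2, 1435 for Pla2g1b, 6263 for Cel, 168.2 for Clps and 25980 CPM for Amy2a3. For the granule and reticulum proteins they were 758.5 for Zg16, 1603 for Gp2, 226.7 for Cuzd1, 94.1 for Serpini2 and 144.8 CPM for Erp27. On log2 CPM no library stood apart in this way for any of the 31 genes, in Sham or in lower-glucose Px, and the 3 higher-glucose libraries were too few to check. Chance alone flags about 1 in 20 groups of normally distributed values. Whether CPM are so distributed was not tested, and the genes here share the same libraries.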

How the results depend on the processing

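The count of acinar genes higher in Px was 29 to 31 under every scaling, filter and tool tried and 29 to 30 with any library left out. By library totals 1 more gene, Cckar, passed downward (−0.415), and Bhlha15 was −0.129. No acinar gene passed between the Px groups under any other scaling or tool; leaving out each library gave 0 to 1 gene. For Cckar this estimate was −0.0396 by library totals and −0.435 when scaled by the members alone. On log2 glucose the Clps slope was 0.0527 scaled by the members alone, and the Rbpjl slope ranged between −0.13 and 0.865 when libraries were left out. The factor to enzyme ratio was −8.325 in Px and −5.985 in Sham without division by exon length, and the acinar share was 21.06% in Px without trypsins and amylase (medians). Among relative levels, Clps in Px against Sham was 0.355 (exact permutation p = 0.0706) against summed counts, and Sycn, Zg16 and Gata4 within Px missed an unadjusted 0.05 there too, Sycn also relative to genes other than trypsins and amylase (p = 0.05) and Sycn and Zg16 without single lower-glucose libraries (p = 0.0714, exact permutation). Without any 1 higher-glucose rat no relative level within Px can reach 0.05; Amy2a3 was then −2.87 to −1.88. The cause of these changes was not tested. No paired analysis was possible because replicate numbers are not shared between the groups. Sham libraries rest on the fewest reads, and Ptf1a had 2 to 107 counts in them.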
